A study of Sus scrofa with 22 samples.

Results

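The genes described here are S100A9, S100A12, CHI3L1, ARG1 and ELANE, measured in blood mononuclear cells of Mini Pigs. They were taken by name, as every probe set that the array's annotation gives to exactly 1 of these symbols. Each gene had 1 probe set, so the set holds 5 of the 6765 genes with 1 symbol on the array. All 5 genes passed the filter on dim probe sets, and S100A12 and ELANE lay close to it.

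S100A9 is a small calcium-binding protein that pairs with S100A8 to form calprotectin, which neutrophils and monocytes hold in bulk and release at sites of inflammation. Calprotectin and the related S100A12 act on the receptors TLR4 and RAGE of neighbouring cells. CHI3L1 is a secreted chitinase-like protein of macrophages and neutrophils that binds chitin without cutting it, and its pig form carries the older name GP38K in the gene table. ARG1 is the arginase that splits arginine into ornithine and urea. In humans it is found in liver, in neutrophil granules and in red cells. ELANE is neutrophil elastase, a granule protease whose gene is transcribed in bone marrow precursors and hardly at all in ripe neutrophils. S100A8, S100A12 and S100A9 stand next to each other, in this order, in the pig gene table.

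Mononuclear cells were taken from blood on a density gradient, a step that leaves most granulocytes and red cells behind. On the resveratrol diet (20% beef tallow and a daily 8 mg of resveratrol per kg), on the high-fat diet (20% beef tallow) and on the control chow (5% beef tallow) there were 2 females and 2 males each at 9 months. At time 0 there were 5 females and 5 males, labelled as the control group and sampled at the start of the study. The 22 arrays came from 20 pigs, since female 8 and male 25 were measured at both times, and the labels give no age. Values are the authors' RMA intensities, given here as log2 throughout, so that a difference of 1 is a doubling. A call is an adjusted p under 0.05 in limma over all 17240 probe sets tested, and a difference stands with its standard error (SE).

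Arrays of 1 group correlated at a median r of 0.992 over 26 pairs. The poly-A spike-in controls, added to the RNA before labelling, lay at levels that the labels do not explain, and at the largest gap within each time they cut the arrays into sets A and B (time 0) and C and D (9 months). Set A held time 0 females 6 and 10, and set D held control male 25, high-fat females 27 and 30, high-fat male 26 and resveratrol female 21. The 3' minus 5' signal of the actin controls, a gauge of RNA integrity, was 1.83 ± 0.45 in females and 2.28 ± 0.71 in males at 9 months (SD, n = 6 each), and 1.42 ± 0.50 (SD, n = 10) at time 0.

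As levels, ARG1 was the brightest of the genes, with a mean of 9.32 over all arrays, above 87.6% of the probe sets on the array. S100A9 averaged 8.60 (above 80.6%) and CHI3L1 8.57 (above 80.4%). ELANE averaged 5.22 and S100A12 4.97, above 35.4% and 32.2%, and these probe sets do not share probes or lengths, so the order does not rank amounts of RNA. S100A8, named for its role as the partner of S100A9, was as dim as S100A12, with a mean of 4.96 and a range of 4.36 to 5.64.

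The markers of neutrophils were mostly dim. Of 47 neutrophil granule and surface genes listed, 14 were on the array and 11 were tested. MMP9 (highest array 4.97), OLFM4 (3.04 and 3.19 for its 2 probe sets) and ALPL (4.69) stayed under a log2 of 5 on all 22 arrays. PRTN3, a granule protease stored with elastase, averaged 5.63 and ranged from 5.27 to 5.99. The brightest neutrophil genes were the surface proteins VNN2 (mean 7.76) and TREM1 (7.34). The 4 tested eosinophil, basophil and mast cell markers averaged 6.99 to 7.78 per array, MS4A2 being the brightest of them (mean 9.79). The 12 tested monocyte markers averaged 9.03 to 10.19 per array and the 4 erythroid markers 7.93 to 11.04. These levels do not settle whether the 5 genes report granulocytes. ELANE varied little near the filter, and ARG1 went with both the erythroid and, at 9 months, the neutrophil genes, as given below, so the genes are called here by their names. In these bulk samples fewer cells of a type and less RNA per cell cannot be told apart.

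**Figure D1:**
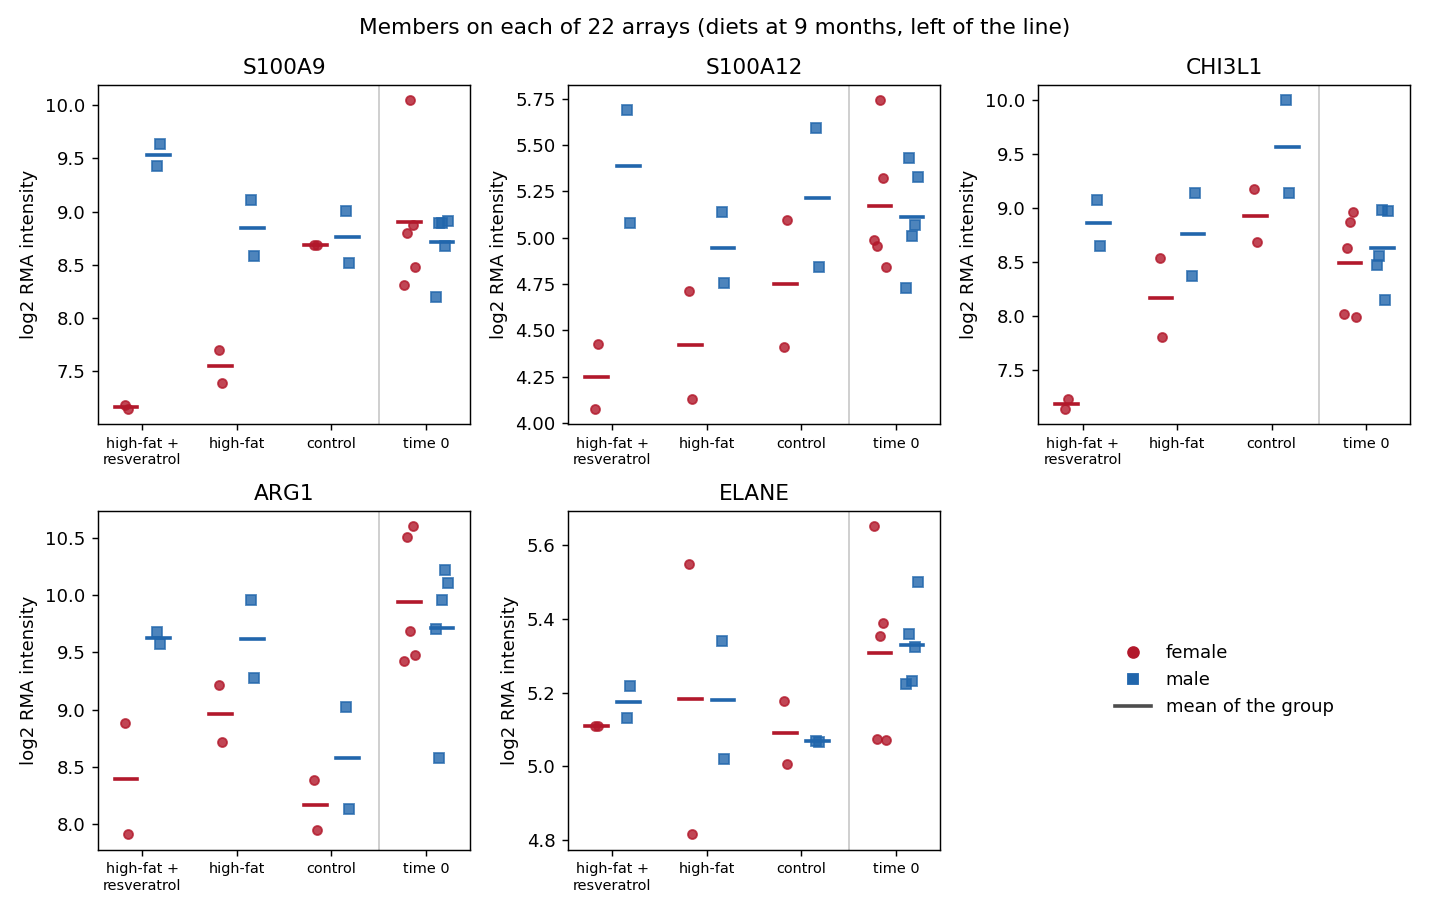
Log2 RMA intensity of S100A9, S100A12, CHI3L1, ARG1 and ELANE (vertical axes, a scale of its own in each panel) on each of 22 arrays, females as red circles and males as blue squares, with a bar at the mean of each group of diet and sex (2 arrays a group at 9 months, 5 at time 0). The resveratrol females sit at 7.15 and 7.18 for S100A9 while the resveratrol males sit at 9.43 and 9.63, and the sexes overlap on control chow and at time 0.

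S100A9 parted the sexes on the resveratrol and high-fat diets at 9 months, and not on control chow. On the resveratrol diet it was 7.18 and 7.15 in females 21 and 22, against 9.43 and 9.63 in males 4 and 5. On the high-fat diet it was 7.70 and 7.39 in females 27 and 30, against 9.11 and 8.58 in males 23 and 26. On control chow it was 8.68 and 8.69 in females 18 and 8, against 9.01 and 8.52 in males 16 and 25. The resveratrol females were the lowest of all arrays and the high-fat females came next, whereas the control females lay inside the range of the males. At time 0 it was 8.31, 8.80, 10.04, 8.88 and 8.48 in females 6, 8, 10, 17 and 20, against 8.20, 8.89, 8.89, 8.68 and 8.91 in males 11, 12, 15, 24 and 25, and the sexes overlapped.

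Over the 3 diets S100A9 was lower in females, at 7.80 ± 0.71 against 9.05 ± 0.45 in males (SD, n = 6 each). The difference was -1.25 (SE 0.22, adjusted p = 0.00482), a 2.37-fold change. S100A12 was lower too, at -0.71 (SE 0.19, adjusted p = 0.0361), and CHI3L1 at -0.97 (SE 0.22, adjusted p = 0.0169). ARG1 differed by -0.76 (SE 0.29, adjusted p = 0.127) and ELANE by -0.01 (SE 0.12, adjusted p = 0.965), neither of them a call. Thus 3 of the 5 genes were lower in females, where 6.01% of all probe sets were called and 2.94% were lower. The groups of 6 females and 6 males overlapped for each of the 5 genes.

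These calls leaned on the resveratrol arrays and on the fit. Without those 4 arrays the differences were -0.69 for S100A9 (adjusted p = 0.978), -0.50 for S100A12 (adjusted p = 0.998) and -0.61 for CHI3L1 (adjusted p = 0.998), and with an additive sex term over the 12 arrays of 9 months the adjusted p was 0.0630, 0.101 and 0.0699, in the same order of genes. S100A9 kept its call when any 1 array was left out. CHI3L1 lost it without control female 8 (-0.89, adjusted p = 0.0583), high-fat female 30 (-0.85, adjusted p = 0.0541) or resveratrol male 4 (-0.90, adjusted p = 0.0544). S100A12 lost it without control female 18 (-0.59), control male 16 (-0.58), high-fat female 30 (-0.61), high-fat male 23 (-0.64), resveratrol female 21 (-0.65), resveratrol female 22 (-0.77) or resveratrol male 4 (-0.61).

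Within the diets the sex difference of S100A9 was called on resveratrol alone, at -2.37 (SE 0.38, adjusted p = 0.00202), a 5.15-fold change. The 2 females and 2 males on that diet did not overlap for any of the 5 genes, ELANE at -0.07 among them. With 2 arrays per sex a lack of overlap carries little weight, here and wherever it is given for a single diet. Its share over all probe sets was not taken, so it is not read as a result about the 5 genes. On that diet the background was 9.98% of probe sets called and 3.9% lower. That count of 1721 probe sets was between 216 (without female 21) and 431 (without male 4) when any 1 of the 4 arrays was left out, and 3581 with array weights. On the high-fat diet it was -1.30 (SE 0.38, adjusted p = 0.305), with groups that did not overlap, and on control chow -0.08 (SE 0.38, adjusted p = 0.975). On each of these diets 0.0928% of probe sets were called. With limma 0 of the 5 genes were called on either, S100A9 on the high-fat diet being the single one of the 5 at an unadjusted p under 0.05. The sex difference on resveratrol minus that on control chow was -2.29 (SE 0.54, adjusted p = 0.0812), a contrast in which 0% of probe sets passed with limma (2895 at an unadjusted p under 0.05), against 1278 probe sets called without control male 25. The sex difference on the high-fat diet minus that on control chow was -1.22 (SE 0.54, adjusted p = 0.414; background 0.0058%), and that on resveratrol minus that on high-fat was -1.07 (SE 0.54, adjusted p = 0.842; background 0.0116%). The size of the sex difference was thus not shown to differ between diets.

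The sex difference of S100A9, averaged over the diets of 9 months, differed from that at time 0. Those diets include the high-fat and resveratrol diets, so diet and time cannot be told apart in this contrast. On control chow alone the sex difference at 9 months was -0.08 (SE 0.38). Females minus males was -1.25 over the diets of 9 months and 0.19 (SE 0.24, adjusted p = 0.761) at time 0, and the difference between these was -1.43 (SE 0.33, adjusted p = 0.0161). In that contrast 7.34% of probe sets were called and 3.89% were lower, and S100A9 was the 1 call among the 5 genes. S100A12 (-0.77, adjusted p = 0.109), CHI3L1 (-0.83, adjusted p = 0.130), ARG1 (-0.99, adjusted p = 0.173) and ELANE (0.01, adjusted p = 0.987) did not pass. The S100A9 call was lost with the spike-in set as a fixed term (-1.20, adjusted p = 0.0704). At time 0 itself 1.07% of probe sets were called between the sexes, and with limma 0 of the 5 genes, none of which had an unadjusted p under 0.05.

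**Figure D2:**
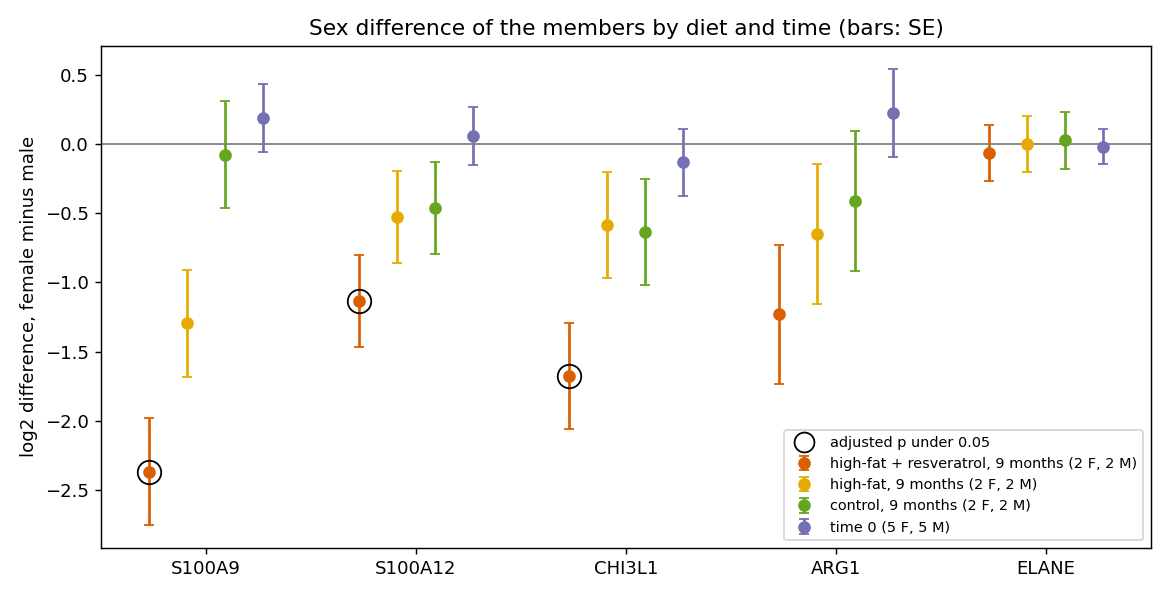
Female minus male log2 difference of the 5 genes (vertical axis) for each diet at 9 months and for time 0, with bars for the SE and a ring where the adjusted p is under 0.05. For S100A9 the points run from -2.37 on the resveratrol diet to -1.30 on high-fat, -0.08 on control chow and 0.19 at time 0, and the rings mark S100A9, S100A12 and CHI3L1 on resveratrol.

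S100A12 ran close to the floor of the array. In the resveratrol group it was 4.08 and 4.42 in females 21 and 22, against 5.69 and 5.08 in males 4 and 5. In the high-fat group it was 4.71 and 4.13 in females 27 and 30, against 5.14 and 4.76 in males 23 and 26, and on control chow it was 4.41 and 5.10 in females 18 and 8, against 5.59 and 4.84 in males 16 and 25. At time 0 it lay between 4.84 and 5.74 in females and between 4.73 and 5.43 in males. The sexes did not overlap on the resveratrol diet and on the high-fat diet, and they overlapped on control chow and at time 0. On resveratrol the difference was -1.14 (SE 0.33, adjusted p = 0.0374), and it was lost without resveratrol female 21 (-0.96), female 22 (-1.31), male 4 (-0.83) or male 5 (-1.44). With values under 32 raised to a floor of 32 on the linear scale, a log2 of 5, the difference was -0.23 over the diets (adjusted p = 0.362) and -0.39 on resveratrol (adjusted p = 0.353).

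CHI3L1 was lowest in the resveratrol females. It was 7.14 and 7.23 in females 21 and 22 on resveratrol, against 9.08 and 8.65 in males 4 and 5. On the high-fat diet it was 8.53 and 7.81 in females 27 and 30, against 8.37 and 9.14 in males 23 and 26, and on control chow it was 9.18 and 8.69 in females 18 and 8, against 10.00 and 9.14 in males 16 and 25. Only the resveratrol groups of this gene did not overlap between the sexes at 9 months. At time 0 it lay between 7.99 and 8.97 in females and between 8.15 and 8.98 in males. The sex difference on resveratrol was -1.68 (SE 0.38, adjusted p = 0.0126), and it lost its call without female 21 (-1.64, adjusted p = 0.0887), female 22 (-1.72, adjusted p = 0.0742) or male 4 (-1.47, adjusted p = 0.0953). On the high-fat diet it was -0.59 (SE 0.38, adjusted p = 0.578) and on control chow -0.64 (SE 0.38, adjusted p = 0.739).

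ARG1 and ELANE gave no call between the sexes. On resveratrol ARG1 was 8.88 and 7.91 in females 21 and 22, against 9.68 and 9.58 in males 4 and 5, a difference of -1.23 (SE 0.50, adjusted p = 0.127) that was called with only the arrays compared in the fit (adjusted p = 0.0449). On the high-fat diet it was 9.21 and 8.72 in females 27 and 30, against 9.96 and 9.27 in males 23 and 26, and on control chow 8.38 and 7.94 in females 18 and 8, against 9.02 and 8.13 in males 16 and 25. Females and males did not overlap for ARG1 on the resveratrol and high-fat diets, and overlapped on control chow and at time 0. ELANE stayed between 4.82 and 5.65 on all arrays, and its sex differences lay between -0.07 and 0.02 in the 4 groups, although on resveratrol the 2 females (5.11 each) lay under the 2 males (5.13 and 5.22).

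Marker genes of other cells also differed between the sexes over the 3 diets of 9 months. In that contrast 6.01% of all probe sets were called and 2.94% were lower. The calls numbered 1036, against 15 without the resveratrol arrays and 203 with an additive sex term, so the marker calls below share that limit. All 12 monocyte markers were negative in females minus males, with a median of -0.55 against 0.02 for all probe sets, and 7 were lower. They included VCAN, a matrix proteoglycan that monocytes secrete (-1.31, SE 0.16), the calcium-binding AIF1 (-0.61, SE 0.10) and the costimulatory receptor CD86 (-0.45, SE 0.08). The mean of the list was 9.03 to 9.95 in the 6 females and 9.60 to 10.19 in the 6 males, and on resveratrol it was 9.03 and 9.24 in females against 10.08 and 10.13 in males. Of the 4 erythroid markers 3 were lower in females, AHSP (-2.19), HBM (-1.93) and ALAS2 (-1.66), while the globin HBB differed by 0.01. The erythroid mean was 7.93 to 9.08 in females and 8.76 to 10.59 in males. T cell markers were positive in 10 of 11, with CD3E higher (0.54), and among 3 B cell markers CD79B (0.97) and CD40 (0.58) were higher. Platelet markers were negative in 6 of 6, with THBS1 lower (-1.20). Of 4 eosinophil, basophil and mast cell markers (median -0.48) and 3 NK cell markers (median -0.00215) none passed with limma (3 and 1 at an unadjusted p under 0.05). The part of these lists in the differences of S100A9, S100A12 and CHI3L1 was not tested.

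Within the spike-in sets the directions of the 3 called genes were as over all arrays, but their calls were lost in both sets, where some groups held a single array. In set C, resveratrol female 22 stood at 7.15 for S100A9 against 9.43 and 9.63 in males 4 and 5, and in set D the high-fat females stood at 7.70 and 7.39 against 8.58 in high-fat male 26. Set C held both sexes on control chow and resveratrol alone, and set D on the high-fat diet alone, so neither covers all diets. The sex difference of S100A9 at 9 months was -1.35 within set C and -1.03 within set D. For S100A12 it was -0.90 and -0.34 in sets C and D, and for CHI3L1 -1.35 and -0.97. The actin difference was 1.29 to 1.38 in resveratrol females and 2.04 to 2.72 in resveratrol males, and its part in the S100A9 difference was not tested.

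Among genes around calprotectin, LY96 was called between the sexes and S100A8 was not. S100A8 differed by -0.33 between females and males at 9 months (SE 0.15, adjusted p = 0.227) and by -0.66 on resveratrol (SE 0.27, adjusted p = 0.124), and of the 8 S100 genes tested beside the 5 genes, S100A8 among them, 0 were called with limma between the sexes at 9 months (2 at an unadjusted p under 0.05, median -0.02). Of the 8 genes for calprotectin receptors and their signalling, LY96, the partner that TLR4 needs to bind its ligands, was lower in females (-0.57, SE 0.09, adjusted p = 0.00349). On resveratrol LY96 was 9.66 and 9.54 in females against 10.69 and 10.83 in males (-1.16, adjusted p = 0.000974), and the kinase IRAK1 was higher (0.61, SE 0.13). TLR4 itself, named with CD14 and BSG for its role, differed by -0.45 at 9 months (adjusted p = 0.160), CD14 by -0.57 (adjusted p = 0.126) and BSG, another receptor bound by S100A9, by 0.09 (adjusted p = 0.635).

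Of the 3 diets, neutrophil genes were called between the sexes on resveratrol and not on the high-fat diet or control chow, and with limma 0 of the 11 passed in the test of that difference between resveratrol and control chow (4 at an unadjusted p under 0.05, median -0.71 against 0.02 for all probe sets). On resveratrol RETN, the granule and monocyte hormone resistin, was 5.83 and 5.70 in females against 7.20 and 6.33 in males (-0.9995, SE 0.23, adjusted p = 0.0135), and VNN2 was 7.62 and 7.55 in females against 8.64 and 9.05 in males (-1.26, SE 0.39, adjusted p = 0.0498). These were 2 of 11 neutrophil genes, with 8 of 11 negative and a median of -0.66. Of all probe sets 9.98% were called there and 3.9% were lower, against 0.0928% called on each of the other diets. Calls on resveratrol alone are thus not particular to the neutrophil genes. Over the 3 diets 0 of 11 passed with limma (7 at an unadjusted p under 0.05), the smallest p being that of TREM1 (-0.69, SE 0.22, adjusted p = 0.0724). The neutrophil mean on resveratrol was 5.82 and 5.95 in females and 6.53 and 6.56 in males. Among proteases and inhibitors around elastase, the elastase inhibitor SLPI (-1.88, SE 0.49, adjusted p = 0.0233) and the broad protease inhibitor A2M (-1.48, SE 0.38) were lower in resveratrol females, while CTSC, which activates elastase, differed by -0.24 (adjusted p = 0.462). Over the 3 diets A2M was the 1 call among these 7 genes (-0.84, SE 0.22, adjusted p = 0.0317). Of 13 genes of arginine metabolism, OAT, which turns ornithine into a precursor of proline and glutamate, was higher in females (0.35, adjusted p = 0.00881). Of 3 chitinase-like genes 0 passed with limma (0 at an unadjusted p under 0.05).

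For the diets with the sexes together, with limma no probe set was called (0%) for high-fat against control (1562 at an unadjusted p under 0.05), for resveratrol against high-fat (1143) or for resveratrol against control (664), and so none of the 5 genes. CHI3L1 came nearest for resveratrol against control, at 8.03 ± 0.99 against 9.25 ± 0.55 (SD, n = 4 each), a difference of -1.22 (SE 0.32, adjusted p = 1.00) that ranked 10 by p among all probe sets. For high-fat against control CHI3L1 was 8.47 ± 0.55 against 9.25 ± 0.55 (SD, n = 4 each), at -0.78 (SE 0.32, adjusted p = 0.471). ARG1 was 9.29 ± 0.51 on high-fat against 8.37 ± 0.47 on control chow (SD, n = 4 each), at 0.92 (SE 0.39, adjusted p = 0.473). The other differences were -0.53 (S100A9), -0.30 (S100A12) and 0.10 (ELANE) for high-fat against control, and each of the 5 genes overlapped between the diets. For resveratrol against high-fat the 5 differences lay between -0.44 (CHI3L1) and 0.15 (S100A9).

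Taken within each sex, the diet values of S100A9 pointed apart. In females S100A9 differed by -1.52 for resveratrol against control (SE 0.38, adjusted p = 0.169; background 0.0406%), by -1.14 for high-fat against control (SE 0.38, adjusted p = 0.746; background 0.0232%) and by -0.38 for resveratrol against high-fat (SE 0.38, adjusted p = 0.850; background 0.0058%). In males the same contrasts gave 0.77 (adjusted p = 0.499; background 0.0116%), 0.08 (adjusted p = 0.931; background 0.029%) and 0.69 (adjusted p = 0.775; background 0.0058%). CHI3L1 differed by -1.74 in females (SE 0.38, adjusted p = 0.119) and -0.70 in males (SE 0.38, adjusted p = 0.530) for resveratrol against control, and with array weights both CHI3L1 (adjusted p = 0.0374) and S100A9 (adjusted p = 0.0434) passed in females. With limma 0 of the 5 genes were called in these 6 contrasts. Of them S100A9 and CHI3L1 for resveratrol against control in females, S100A9 for high-fat against control in females, CHI3L1 for resveratrol against high-fat in females and CHI3L1 for high-fat against control in males had an unadjusted p under 0.05.

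With limma 0 of the 12 monocyte markers were called in the diet contrasts. For high-fat against control 12 of 12 were negative (median -0.49, 7 at an unadjusted p under 0.05), and for resveratrol against control 11 of 12 (median -0.35, 3 at an unadjusted p under 0.05). The monocyte mean was 9.03 to 10.13 on resveratrol, 9.20 to 9.81 on high-fat and 9.75 to 10.19 on control chow. Both high-fat females lay in spike-in set D and both control females in set C, so set and diet cannot be told apart in females for that contrast.

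**Figure D3:**
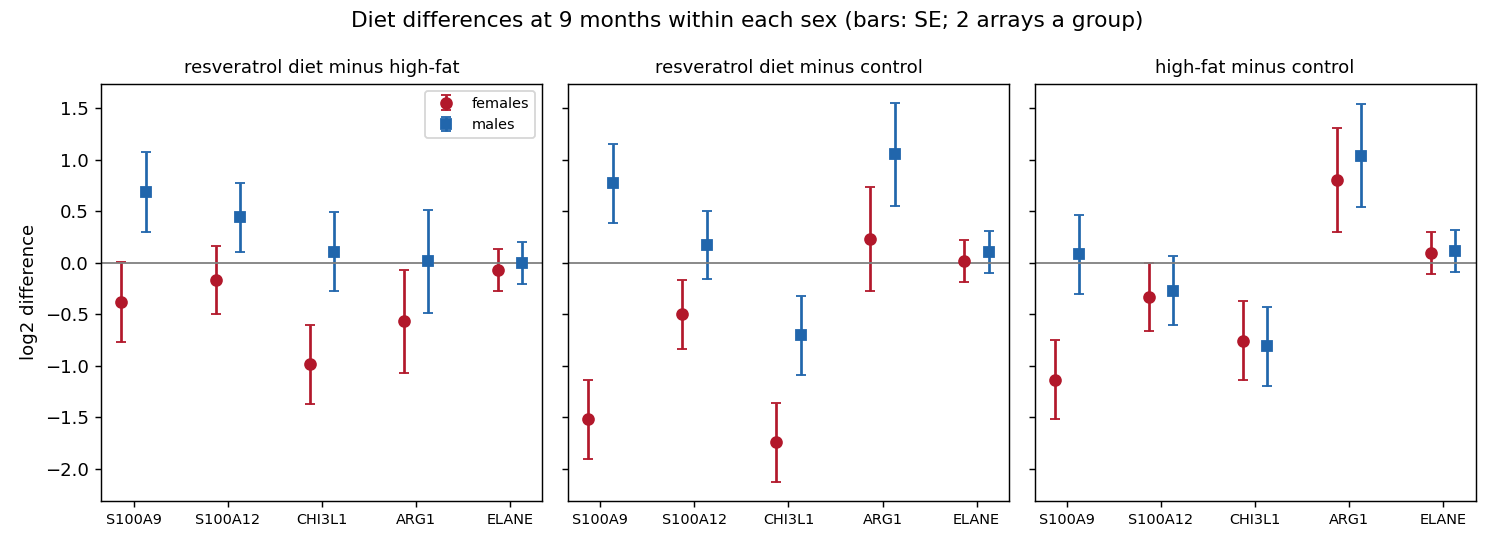
Log2 difference of the 5 genes (vertical axis) for resveratrol minus high-fat, resveratrol minus control and high-fat minus control at 9 months, females as red circles and males as blue squares, with bars for the SE and 2 arrays in each group. S100A9 stands at -1.52 in females and 0.77 in males in the middle panel, ARG1 is positive in both sexes in the right panel, and no point was called.

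Over the 9 months ARG1 fell on control chow. It was 8.38, 7.94, 9.02 and 8.13 in the control arrays of 9 months, against 9.42, 10.51, 9.69, 10.61, 9.47, 9.71, 8.58, 9.96, 10.22 and 10.11 at time 0. One control male of 9 months, male 16, lay above the lowest time 0 array, male 12, and the other 3 lay below all of time 0. The difference was -1.46 (SE 0.32, adjusted p = 0.00166), a 2.74-fold change, and it was called in all 26 alternatives run, between -1.63 and -1.32. Here 35% of all probe sets were called and 19.1% were lower, so 1 call among 5 genes is no larger a share than the background. By sex the fall was -1.78 in females (SE 0.42, adjusted p = 0.00510; 24.7% called, 13.1% lower), lost without control female 8 (-1.55, adjusted p = 0.0860), and -1.14 in males (SE 0.42, adjusted p = 0.0629). With 1 array left out the male value lay between -1.58 and -0.69, and it was called without time 0 male 12 (-1.42, adjusted p = 0.0121). Female 8, measured at both times, had 7.94 at 9 months and 10.51 at time 0, and male 25 had 8.13 at 9 months and 10.11 at time 0.

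CHI3L1 ran the other way on control chow, at 9.25 ± 0.55 (SD, n = 4) at 9 months against 8.56 ± 0.40 (SD, n = 10) at time 0. The difference was 0.69 (SE 0.27, adjusted p = 0.0529), not a call, and it was 0.72 (adjusted p = 0.0487) with the pig as a block. That block rests on the 2 pigs measured at both times, and its correlation within pigs was negative (-0.18), so the call gained with it carries little weight. It was called in 11 of 26 alternatives, with adjusted p between 0.0224 and 0.199. In males it was 0.94 (SE 0.32, adjusted p = 0.0445; 20.8% called, 9% higher) and 0.51 (adjusted p = 0.494) without control male 16. This call was also lost without time 0 male 11 (adjusted p = 0.0758), male 12 (adjusted p = 0.0667) or male 24 (adjusted p = 0.0847). S100A9 (-0.08), S100A12 (-0.16) and ELANE (-0.24, adjusted p = 0.106) were not called. The high-fat arrays of 9 months (32.9% of probe sets called against time 0) and the resveratrol arrays (35.1%) gave no call for the 5 genes with limma, with ARG1 at -0.54 and -0.82 and CHI3L1 at -0.10 and -0.54. ARG1 on resveratrol was called in 4 of 26 alternatives (adjusted p down to 0.00776) and CHI3L1 in 2, and on the high-fat diet S100A9 and ARG1 were called in 1 each (adjusted p = 0.0427 and 0.0496). By unadjusted p under 0.05 ARG1 passed on resveratrol and none of the 5 on high-fat. These 3 time comparisons share the time 0 arrays. On control chow the groups of 9 months and time 0 overlapped for each of the 5 genes.

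Over the same interval 35% of all probe sets were called on control chow, 2726 of 17240 higher and 3300 lower. Against that background the calls among genes of arginine metabolism are not read as a shift of the pathway. Of 13 genes of arginine metabolism 3 were higher on control chow at 9 months, among them ODC1, which makes polyamines from ornithine (0.71, SE 0.12), the arginine carrier SLC7A1 (0.60, SE 0.12) and the nitric oxide synthase NOS2 (0.42, SE 0.11). SMS, the spermine synthase, was lower (-0.69, SE 0.10), and the second arginase, ARG2, differed by 0.24 (adjusted p = 0.147). All 4 erythroid markers were lower, HBB by -0.81, AHSP by -1.90, HBM by -1.63 and ALAS2 by -1.27, with list means of 7.93 to 9.56 at 9 months on control chow and 9.10 to 11.04 at time 0. Their part in the fall of ARG1 was not tested. The spike-in sets were cut within each time and so give no check of the time differences.

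The other lists in the same contrast stand beside a background of 35% of all probe sets called (2726 of 17240 higher, 3300 lower). Of 11 neutrophil genes 0 passed with limma (2 at an unadjusted p under 0.05), VNN2 having the smallest p (0.66, adjusted p = 0.0507). Of the other S100 genes 2 of 8 were lower, S100A1 (-1.29) and S100B (-0.60), and CHID1 was lower among 3 chitinase-like genes (-0.26). Calprotectin receptor and signalling genes had 3 higher and 1 lower of 8, with NFKBIA, an inhibitor of NF-kB, at 0.50 and BSG at -0.34. A2M (1.40) and the elastase inhibitor SERPINB1 (0.32) were higher. Monocyte markers had 4 higher of 12, with CD163 at 1.07 and VCAN at 1.11, while T cell markers had 7 lower of 11, with CD3G at -0.88.

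S100A9 and S100A12, the neighbouring S100 genes, ran together from pig to pig. Across the 10 arrays of time 0 Pearson's r was 0.874 and Spearman's rho 0.830 (permutation adjusted p = 0.0110 and 0.0478 over 20 relations), and r was 0.647 without the 2 arrays farthest from the median of S100A9. Across the 12 arrays of 9 months r was 0.818 and rho 0.811 (permutation adjusted p = 0.0144 and 0.0406), and 0.754 without the resveratrol females, the farthest 2. After centring on the groups of diet and sex r was 0.876 at time 0 (permutation adjusted p = 0.0118) and 0.538 at 9 months (permutation adjusted p = 0.292). S100A9 with CHI3L1 had r of 0.742 and rho of 0.503 at 9 months (permutation adjusted p = 0.0353 and 0.283), 0.465 without the resveratrol females and 0.115 after centring, so that relation rested on those females. The other 17 relations did not pass.

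Set beside marker lists, S100A9 followed the monocyte, erythroid and neutrophil means at 9 months, and at time 0 the neutrophil mean through its 2 farthest arrays. Over 12 arrays of 9 months r of S100A9 with the monocyte mean was 0.931 and rho 0.832 (permutation adjusted p = 0.00240 and 0.0277 over 30 relations), 0.886 without the 2 farthest arrays and 0.694 after centring on the groups (permutation adjusted p = 0.108). CHI3L1 had r of 0.827 and S100A12 0.796 with the same mean (permutation adjusted p = 0.0115 and 0.0169), and after centring these were 0.269 and 0.309. At time 0 r of S100A9 with the monocyte mean was 0.222, and with the neutrophil mean 0.885 (rho 0.576, permutation adjusted p = 0.0177 and 0.206). Without the 2 farthest arrays r was 0.359, so that relation rested on those arrays, although centred on the groups r was 0.906 (permutation adjusted p = 0.0140). S100A12 with the neutrophil mean at time 0 had r of 0.829 and 0.474 without the 2 farthest, so it rested on them too, with 0.878 after centring (permutation adjusted p = 0.00945). At 9 months S100A9 and ARG1 had r of 0.711 and 0.719 with the neutrophil mean (permutation adjusted p = 0.0255 and 0.0245), and S100A9 had 0.773 with the erythroid mean (permutation adjusted p = 0.0177). After centring these were 0.657, 0.467 and 0.569, none past the threshold. With the erythroid mean S100A9 had rho of 0.713 (permutation adjusted p = 0.0492), and r of 0.717 without the 2 farthest arrays. With the neutrophil mean S100A9 had rho of 0.755 (permutation adjusted p = 0.0362), and r of 0.707 without the 2 farthest arrays. For ARG1 these were 0.678 (permutation adjusted p = 0.068) and 0.495.

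ARG1 followed the erythroid mean at both times. At time 0 r was 0.856 and rho 0.830 (permutation adjusted p = 0.0169 and 0.0352), 0.787 without the 2 farthest arrays and 0.885 after centring (permutation adjusted p = 0.00945). At 9 months r was 0.785 and rho 0.818 (permutation adjusted p = 0.0177 and 0.0277), 0.642 without the 2 farthest and 0.626 after centring (permutation adjusted p = 0.135). ELANE passed with none of the 3 lists at either time.

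**Figure D4:**
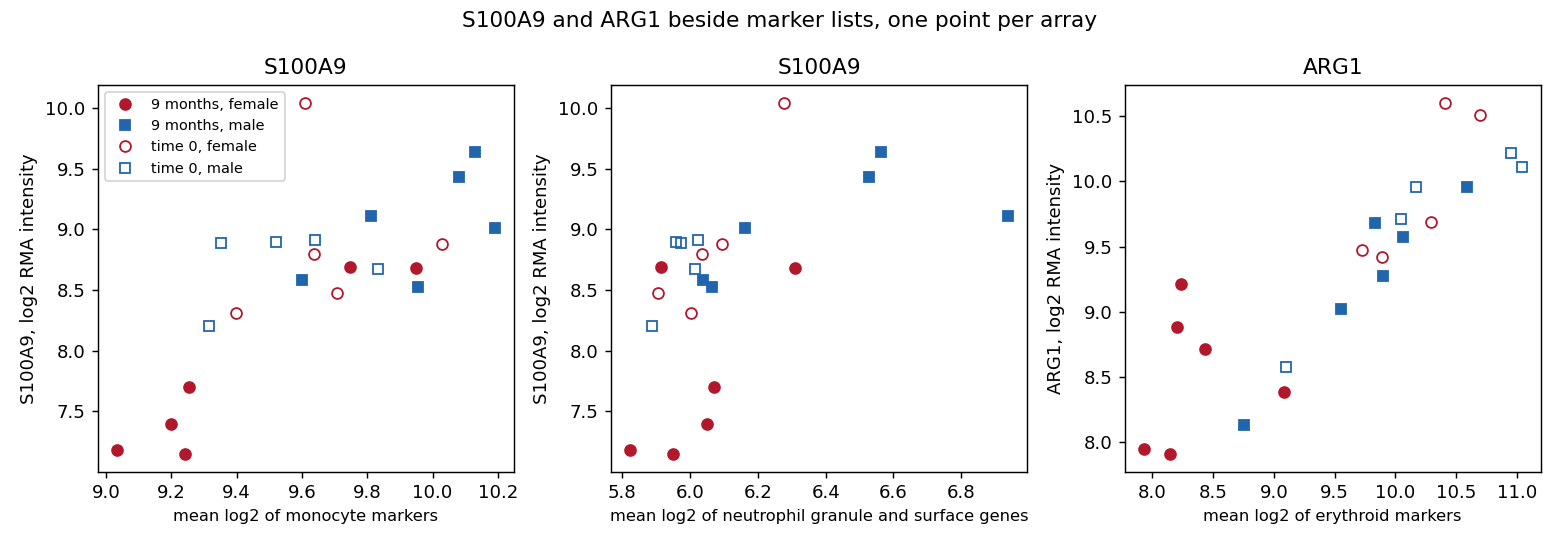
Log2 RMA intensity of S100A9 or ARG1 (vertical axes) against the mean log2 of the monocyte, neutrophil or erythroid marker list (horizontal axes), 1 point per array, filled for 9 months and open for time 0, females as red circles and males as blue squares. In the left panel 4 females of 9 months lie at the lower left, in the middle panel time 0 female 10 stands above the other time 0 arrays, and in the right panel ARG1 is high where the erythroid mean is high.

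The genes most like each of the 5 were sought among 5905 other genes by Pearson's r over 22 arrays centred on the 8 groups, given as a description of arrays that share groups and labelling. For ARG1 they were LOC100154873 and the water channel AQP1 (0.882 each), WSB2 (0.880), the ferritin receptor NCOA4 (0.858) and RHCE, a blood group protein of the red cell membrane (0.850). The other members ranked 610 (CHI3L1) or lower in likeness to ARG1. For S100A9 they were the lipid carrier MFSD2A (0.774), LOC100513397 (0.766), ASAP3 (0.760), PLEK (0.748) and DGAT2 (0.747), with S100A12 at rank 14 (0.695). For S100A12 they were LOC100522375 (0.888), PSORS1C2 (0.867), MFSD2A (0.851), PNOC (0.842) and CHRM1 (0.819). For CHI3L1 they were UPK3BL2 (0.758), C15H2orf54 (0.751), the deacetylase SIRT2 (0.740), HABP2 (0.738) and PYGM (0.733), and for ELANE they were LPL (0.798), C16H5orf49 (0.762), IGFBP6 (0.726), LOC100517674 (0.692) and PLEKHB1 (0.684).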

How the data were processed

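RNA of blood mononuclear cells was labelled with the One-Cycle protocol and hybridised to Affymetrix pig arrays, per the labels' protocols. The deposited values are linear intensities that the authors obtained with GCOS, RMA and Affymetrix Expression Console 1.1, per the submitters' processing notes. The genome build is not given in the sources used here, and symbols came from the array's annotation.

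Intensities were raised to a floor of 1 and taken to log2. After 124 control probe sets were set aside, 17240 of 23999 (71.8%) had a log2 above 5 in at least 2 arrays and were tested. Diets and times were compared with limma 3.58.1 in R 4.3.3 over all 22 arrays, with condition and an additive sex term, and sexes, diets within a sex and differences between sexes with 8 group means. Tests were two-sided with Benjamini-Hochberg adjustment over all tested probe sets. Correlations used 100000 permutations (scipy 1.17.1). On simulated data a log2 change of 1 was recovered in 94.5% of 200 changed probe sets for females against males at 9 months, among 17240 probe sets. For the sex difference in the high-fat and resveratrol effects the share was 40.5% and 40%. The simulated noise was normal and independent between probe sets, so these shares are not the power in the real arrays.

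A gene with several probe sets was read from the brightest. The text names the 5 genes, up to 3 called genes of each list with the smallest p per comparison, the neutrophil gene with the smallest p where none was called, and the 5 genes most like each member. S100A8, PRTN3, MMP9, OLFM4, ALPL, TLR4, CD14, BSG, CTSC, ARG2, HBB, NPG4, PR39 and MS4A2 were added for their roles or after their values were seen. Members and lists were chosen with earlier results of these data known. The labels number the pigs and give 1 blood sample per pig and time. Pigs 8 and 25 pair the 2 times, as the same animals, and their deviations from the group means correlated at -0.06 and 0.17. The number of arrays limits the precision. Alternatives were the filter, floor, normalization, array weights, the arrays in the fit, spike-in sets, the pig as a block and each array left out; those on spike-in sets, on single diets and on marker list means were chosen after seeing the data.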

Additional observations from a re-analysis of the deposited data

Results flagged for a closer look

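Among 66 groups of values tested, 5 had 1 array far from the others. Chance flags about 1 in 20 independent groups, but these groups are nested, 3 of the 5 are 1 array (high-fat male 23), the neutrophil list holds NPG4 and PR39, and those genes were added after values were seen, so no rate is read from them. S100A9 stood at 10.04 in time 0 female 10, the highest array of time 0, where the next was 8.91. The neutrophil list mean of the same array, 6.278, was the highest of time 0. High-fat male 23 had a neutrophil list mean of 6.938, the highest of the high-fat arrays. In that array the antimicrobial peptide genes NPG4 (10.35) and PR39 (6.311) stood far above the other high-fat arrays, where NPG4 reached 6.94 and PR39 4.84. S100A9 in high-fat male 23 was 9.11.

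The female minus male difference of S100A9, averaged over the 3 diets of 9 months, was lower than at time 0 by a test of the difference itself (-1.434, limma adjusted p = 0.0161). Diet and time cannot be told apart in it, and on control chow alone the sex difference at 9 months was -0.08.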

How the results depend on the processing

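The limits of these results lie in 2 arrays per sex and diet at 9 months and in S100A12 and ELANE lying near the filter. The call of ARG1 on control chow at 9 months against time 0 held in 26 of 26 alternatives, that of S100A9 between the sexes on resveratrol in 16 of 16 (-2.467 to -2.202), and that of S100A9 over the diets in 24 of 28. The cause of the changes below was not tested.

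Spike-in set C held both sexes on control chow and resveratrol alone, and set D on the high-fat diet alone. Females minus males within sets C and D, where the calls over the 3 diets were lost, gave -1.352 and -1.032 for S100A9, -0.8995 and -0.3355 for S100A12 and -1.351 and -0.9721 for CHI3L1. Over the 3 diets an additive sex term gave -1.247, -0.7087 and -0.9679 without a call, and leaving out the resveratrol arrays gave -0.6873, -0.4956 and -0.6122. S100A12 also lost its call with a floor of 32 (-0.2341), with only the arrays compared (-0.7087) and with the set as a fixed term (-0.6267), and on resveratrol with the floor (-0.3861) and the fixed term (-0.8889). The difference of S100A9 between times was -1.195 with the fixed term. CHI3L1 on control chow in males lost its call with no filter and with the floor (0.9404 in both), array weights (0.9444) and the set as a random block (0.9514).

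Among differences larger than their standard error, directions turned for S100A12 for resveratrol against time 0 with the floor (0.002695) and for high-fat against control in females with the fixed term (0.1586) and with 1 array left out (-0.6767 to 0.01007, the highest without control female 8), for CHI3L1 for resveratrol against high-fat within set C (0.3987), where high-fat male 23 is the single high-fat array. Within set D high-fat against control gave 0.05999 for S100A9 and 0.005456 for CHI3L1, which is high-fat male 26 against control male 25 and no check of that comparison. None of these was a call. Smaller differences changed sign more freely with 1 array left out, such as S100A9 for resveratrol against high-fat (-0.1978 to 0.472) and for sex at time 0 (-0.09863 to 0.3345).

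With 1 array left out, ARG1 on control chow against time 0 ranged from -1.632 to -1.315 and in females from -1.995 to -1.554, and CHI3L1 in males from 0.5102 to 1.371. Between the sexes over the diets the ranges were -1.335 to -1.159 for S100A9, -0.8331 to -0.5843 for S100A12 and -1.111 to -0.8245 for CHI3L1, and on resveratrol -2.467 to -2.265, -1.44 to -0.8295 and -1.893 to -1.465. The difference of S100A9 between times ranged from -1.581 to -1.148.

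Counts of probe sets called, with 1 array left out, ranged from 4867 to 6087 for control chow against time 0, 319 to 1441 for sex at 9 months, 38 to 395 for sex at time 0 and 0 to 18 for high-fat against control. For resveratrol against high-fat and against control they were 0 to 0, and for the sex difference in the high-fat and resveratrol effects 1 to 154 and 1 to 54. For sex on resveratrol they were 216 to 431, for the sex difference in resveratrol against control 0 to 1278 (36 with the floor), and for the diets within a sex up to 1660 (high-fat against control in males, without control male 25). For high-fat against control the count was 68 with array weights, 18 with 8 group means, 2 with only the arrays compared and 25 within set C. For resveratrol against high-fat it was 1 with 8 group means and 29 within set C (both set C counts rest on high-fat male 23 alone in its arm), and for resveratrol against control 1 with 8 group means. For sex at time 0 it was 43 with only the arrays compared, 83 with the random block, 25 with the fixed term and 22 within set B. For sex at 9 months it was 14 and 9 within sets C and D, 203 with the additive term and 15 without the resveratrol arrays. For the sex difference in the high-fat effect it was 0 with the stricter filter, and for that in the resveratrol effect 0 with the stricter filter, 4 with the floor, 1 with only the arrays compared and 1 with the fixed term. Correlations between the genes that passed numbered 1 after centring on groups, against 3.

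With the pig as a replicate block, 5828 probe sets were called for control chow against time 0, against 6026 without it. The block changed 1 call among the 5 genes, that of CHI3L1 in that contrast (0.7163), at a correlation within pigs of -0.1756. With 1 probe set per gene, the mean over probe sets gave no value, and the stricter filter removed S100A12 and ELANE.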

Other observations

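The genes whose level was most like that of ARG1 were described above by their correlation alone. Between the sexes at 9 months over the 3 diets, 4 of those 5 genes were lower in females: the water channel AQP1 (-1.04, SE 0.26, limma adjusted p = 0.0249), the red cell membrane protein RHCE (-1.24, SE 0.31, limma adjusted p = 0.0284), LOC100154873 (-1.82, SE 0.48, limma adjusted p = 0.0342) and NCOA4 (-0.42, SE 0.12, limma adjusted p = 0.0464). WSB2 differed by -0.11 (limma adjusted p = 0.366). On control chow at 9 months against time 0, AQP1 (-0.87), RHCE (-1.35) and LOC100154873 (-2.65) were lower, while NCOA4 differed by -0.29 (limma adjusted p = 0.0851) and WSB2 by 0.00111. These genes were picked for likeness to ARG1 on the same arrays, so their direction is not independent of that of ARG1.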
